A study of Mus musculus with 36 samples.

Results

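The response of blood and spleen monocytes to 6 months of high cholesterol diet was set against the response of peritoneal macrophages from the same kind of mouse. For every gene, the log2 change of monocytes (advanced over baseline) minus the log2 change of peritoneal macrophages (advanced over baseline) was tested in one fit of 16 libraries, out of 36 in the series. The series profiled gene expression in monocytes and macrophages of Apoe ko mice at successive stages of atherosclerosis. The libraries fell into 4 groups of 4: monocytes of Apoe ko mice after 6 months of high cholesterol diet (advanced), monocytes of Apoe ko mice on chow (baseline), peritoneal macrophages of Apoe ko mice after the same 6 months (advanced), and peritoneal macrophages of Apoe ko mice on chow (baseline). All 4 groups lacked functional Apoe, so no group shows a mouse with the gene. Early libraries (1 month of the diet, 4 per population) served in a second fit. Whether replicate libraries are separate animals is not stated, and no age is given, so every p-value here reflects variation among libraries that may be technical.

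Apolipoprotein E lets the liver clear cholesterol-rich lipoproteins, and mice without it develop atherosclerosis, faster on a cholesterol-rich diet. Monocytes are made in the bone marrow, and in the spleen under stress, from dividing myeloid progenitors, live for days and do not normally divide in blood. Large peritoneal macrophages are long-lived resident cells that depend on the transcription factor GATA6 and keep their number by dividing in place. The comparison asks which genes answered the diet differently in a short-lived circulating cell and in a resident macrophage.

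The markers fitted the labels. Gata6 had 161 to 174 CPM (the reads of a gene scaled to a common library size) in advanced and 157 to 181 CPM in baseline peritoneal macrophages, with 0 counts in all 8 monocyte libraries. Ly6c2, a surface protein of classical monocytes, had 371 to 664 CPM in advanced and 412 to 749 CPM in baseline monocytes, and at most 0.600 CPM in the peritoneum. Apoe reads remained at 2.65 to 10.9 CPM in advanced monocytes, 6.80 to 12.9 CPM in baseline monocytes, 3.17 to 5.46 CPM in advanced and 5.40 to 7.83 CPM in baseline peritoneal macrophages. Depth was unequal: 1.38 ± 0.317 M reads in advanced and 11.6 ± 2.46 M in baseline monocytes, 1.89 ± 0.231 M in advanced and 11.4 ± 2.21 M in baseline peritoneal macrophages (SD, n = 4 each). Baseline was thus 8.38 times as deep as advanced in monocytes and 6.04 times in the peritoneum. In bulk RNA, fewer cells of a type and less RNA per cell cannot be told apart.

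Of 11355 genes tested, 436 (3.84%) had a different change in the 2 populations at an adjusted p under 0.05 (Benjamini-Hochberg, edgeR), 240 (2.11%) with a positive and 196 (1.73%) with a negative difference. A positive difference means that a gene moved further up, or less far down, in monocytes than in peritoneal macrophages. Left without Rn45s, a ribosomal RNA repeat that took 6.50 to 19.8% of the reads, the same fit called 287 positive and 109 negative differences. The count was 164 without advanced monocyte library 3. It was also more than 1.5 times lower without baseline monocyte 1 or 2, any single advanced peritoneal library, or baseline peritoneal 1, 3 or 4. Baseline monocyte 4 and baseline peritoneal 4 had the lowest median Spearman correlation with the other libraries of their groups (0.952 and 0.962). Advanced monocyte 3 did not stand apart in this way (0.955, group 0.954 to 0.955). It was the highest of its group on the division, neutrophil and progenitor lists below. Without these 3 libraries, chosen after seeing the data, the count was 195. Counts thinned to the shallowest library gave 148 calls.

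More genes were called in monocytes than in peritoneal macrophages. Tested alone, monocytes changed in 2253 genes (19.8%), with 873 up (7.69%) and 1380 down (12.2%), and peritoneal macrophages in 699 (6.16%), with 352 up (3.1%) and 347 down (3.06%). Up and down calls in monocytes stood at 1072 and 1113 with RLE size factors, and at 1088 and 1098 without Rn45s. Without advanced monocyte library 3 the monocyte count was 1486, and the peritoneal count was more than 1.5 times lower without advanced peritoneal 3 or 4 or baseline peritoneal 1 or 2 (down to 294). Limma-voom called 2362 monocyte and 1711 peritoneal changes. Without advanced monocyte 3, baseline monocyte 4 and baseline peritoneal 4 together, 1167 peritoneal changes were called. Of the 436 genes, 332 had the larger absolute change in monocytes, and the median absolute log2 change was 0.856 in monocytes and 0.463 in peritoneal macrophages. The most frequent pattern was a rise called in monocytes alone, in 203 genes. A fall called in monocytes alone followed with 135 genes, then a rise in peritoneal macrophages alone with 47 and a fall there alone with 17. Opposite changes, each called, were found in 10 genes, and 22 genes reached the threshold only as a difference. The remaining 2 were called the same way in both populations with unequal size.

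**Figure D1:**
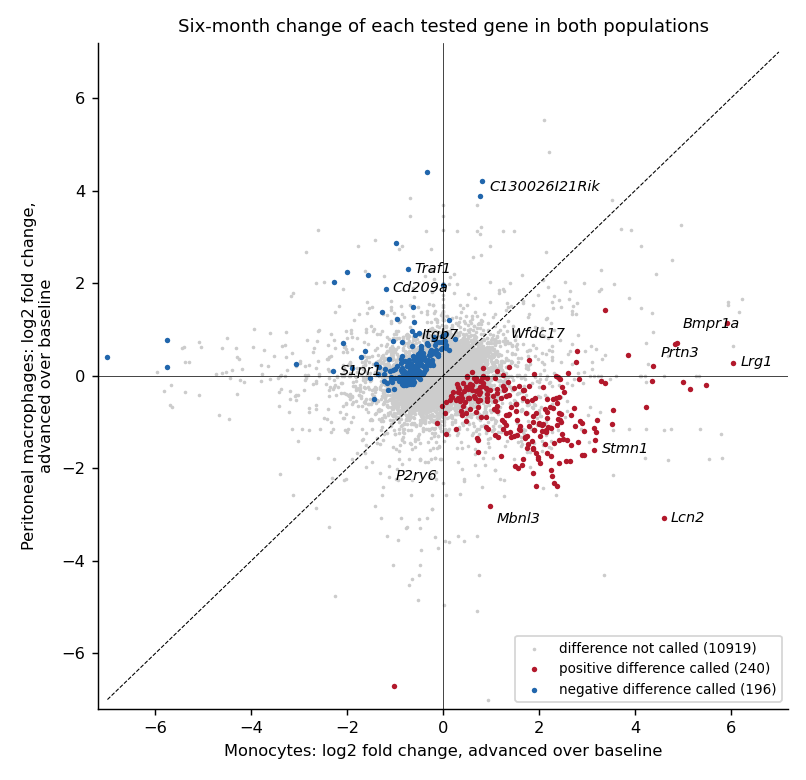
Each point is 1 of 11355 genes, with its log2 fold change (advanced over baseline) in monocytes on the x axis and in peritoneal macrophages on the y axis; the dashed line marks equal changes, and 2 genes beyond a log2 change of 7 are drawn at that limit. The 240 positive differences lie to the right of and below the line, mostly at positive monocyte changes, and the 196 negative ones to the left of and above it.

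Many genes of DNA replication and cell division had positive differences. In a list of 34 such genes, 33 were tested and 18 had a called positive difference, against 2.11% of all genes, with a median difference of 3.10 on the log2 scale (all genes: -0.08). In monocytes 21 of the 33 rose and none fell, against 7.69% and 12.2% of all genes, with a median change of 1.78. In peritoneal macrophages none rose and Mcm2 and Mcm3 fell, against 3.1% and 3.06% of all genes, and the median change was -1.20. Mcm2 changed by -1.35 there (adjusted p = 0.035).

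Stmn1, which codes for stathmin, a protein that takes microtubules apart when the spindle forms, lies at chr4:134468320-134473843 (GRCm38.p6, RefSeq; mm10 is the same assembly). It had 22.5, 20.2, 45.7 and 14.5 CPM in advanced monocytes, against 3.32, 1.87, 3.99 and 2.43 CPM in baseline monocytes. Advanced peritoneal macrophages had 1.09, 4.20, 2.18 and 4.97 CPM, against 12.1, 3.78, 10.8 and 13.4 CPM in baseline peritoneal macrophages. Every advanced monocyte library was above every baseline one, while the peritoneal groups overlapped through baseline library 2. The difference was 4.75 ± 0.66 (log2, SE, adjusted p = 0.00339), from a rise of 3.15 ± 0.43 in monocytes and a peritoneal change of -1.60 ± 0.51 that did not pass (adjusted p = 0.0722).

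Mcm6 and Mcm3 are subunits of the helicase that opens DNA at replication forks. Mcm6 had 32.4, 43.5, 67 and 39.9 CPM in advanced monocytes and 22.5, 19.1, 30.1 and 13.1 CPM in baseline monocytes. Its peritoneal values were 28.4, 53.4, 44.1 and 43.0 CPM at the advanced stage and 82.5, 50.9, 91.2 and 74.1 CPM at baseline. The monocyte groups did not overlap and the peritoneal ones did, by 1 library. The difference was 1.88 ± 0.36 (adjusted p = 0.0107). For Mcm3 both single changes passed, a rise of 0.89 ± 0.25 in monocytes and a fall of 0.90 ± 0.24 in peritoneal macrophages, and the difference was 1.79 ± 0.35 (adjusted p = 0.0117).

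Top2a, the topoisomerase that untangles sister chromosomes, had 122, 164, 423 and 64.6 CPM in advanced and 44.0, 15.6, 60.2 and 11.8 CPM in baseline monocytes. Its difference was 3.97 ± 0.79 (adjusted p = 0.0134). Tyms, which makes the thymidine nucleotide for DNA, rose by 3.38 ± 0.51 in monocytes, and its peritoneal change was -0.16 ± 0.47. Hmmr, a spindle protein that also binds hyaluronan, and Cenpe, a kinetochore motor, had differences of 4.63 ± 1.00 and 4.49 ± 1.01. Mki67, the standard marker of dividing cells (chosen after its values were seen), had 271, 275, 920 and 113 CPM in advanced monocytes against 177, 57.9, 310 and 30.5 CPM in baseline monocytes. Those groups overlapped, and neither single change of Mki67 passed, although their difference did (3.45 ± 0.93, adjusted p = 0.0456). That call was lost in 11 of 16 fits that left out 1 library (adjusted p up to 0.135) and passed without advanced monocyte 1 or 4, baseline monocyte 3 or 4 or baseline peritoneal 2.

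Advanced monocyte library 3 had the highest mean level of the list. Without it 5 members had a called difference and 5 were called as risen in monocytes. The count of differences was 9 to 11 without baseline monocyte 2 or any single advanced peritoneal library. Over all fits that left out 1 library, the count of called differences ran from 5 to 24 and the count of risen members from 5 to 30. Stmn1, Mcm6, Mcm3, Tyms and Top2a passed in each of the 16 such fits, with adjusted p up to 0.0135, 0.0327, 0.0327, 0.0341 and 0.0332. Hmmr and Cenpe missed the threshold without that library (adjusted p = 0.0527 and 0.0615), and Cenpe also without advanced peritoneal library 3 (0.0502).

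**Figure D2:**
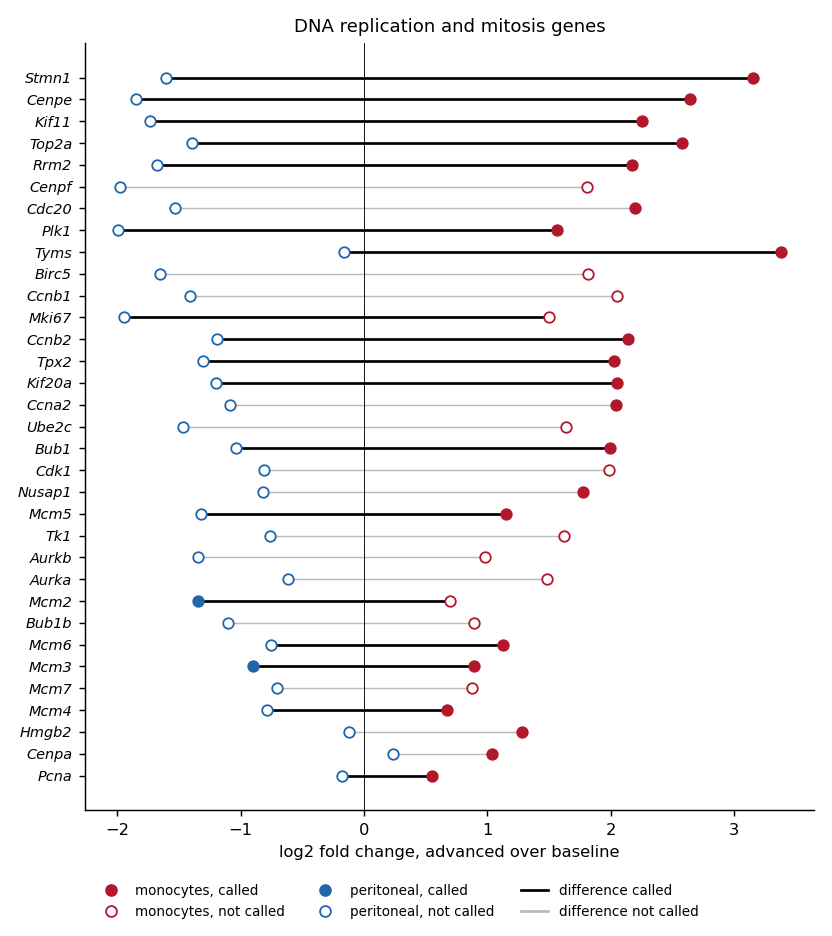
Each row is 1 of the 33 tested DNA replication and mitosis genes, with its log2 fold change (advanced over baseline) in monocytes in red and in peritoneal macrophages in blue; filled points passed the test of the single change and black lines mark the 18 called differences. All 33 red points lie at positive values, and 32 of the 33 blue points lie at negative ones.

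Promoters of cell cycle genes carry short motifs through which their transcription is tied to division. Among called list members with a promoter in the RefSeq table, Mcm6, Mcm3, Tyms and Top2a had the smallest p of the difference. For this reason the 200 bases before the start site used there are shown for all 4. Motif letters are in capitals (5′ to 3′ on the gene's strand, RefSeq, GRCm38.p6). All motifs were searched on both strands, and matches may overlap. One was the CCAAT box (CCAAT). Another was the core of the cell cycle homology region, spelled TTTGAA. The last was an E2F site, spelled TTTNNCGC.
Mcm6: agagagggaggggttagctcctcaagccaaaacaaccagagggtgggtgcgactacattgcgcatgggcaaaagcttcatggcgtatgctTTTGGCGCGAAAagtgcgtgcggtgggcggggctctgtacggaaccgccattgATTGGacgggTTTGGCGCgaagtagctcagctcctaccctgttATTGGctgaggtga
Mcm3: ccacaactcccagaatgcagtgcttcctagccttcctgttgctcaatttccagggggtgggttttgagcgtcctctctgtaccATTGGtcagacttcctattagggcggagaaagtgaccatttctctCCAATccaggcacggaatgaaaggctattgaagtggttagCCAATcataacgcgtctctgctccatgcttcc
Tyms: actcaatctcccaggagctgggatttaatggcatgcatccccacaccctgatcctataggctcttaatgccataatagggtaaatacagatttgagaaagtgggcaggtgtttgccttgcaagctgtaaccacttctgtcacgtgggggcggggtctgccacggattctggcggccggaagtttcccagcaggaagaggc
Top2a: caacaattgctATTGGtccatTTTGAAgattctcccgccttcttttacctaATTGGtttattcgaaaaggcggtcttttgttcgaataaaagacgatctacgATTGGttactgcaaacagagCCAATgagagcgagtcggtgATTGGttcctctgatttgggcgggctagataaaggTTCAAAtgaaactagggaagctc
They lie at chr1:128359706-128359905, chr1:20820313-20820512, chr5:30073626-30073825 and chr11:99024190-99024389, all on the minus strand. CCAAT occurred 2 times before Mcm6, 3 times before Mcm3 and 5 times before Top2a, where TTTGAA also occurred 2 times, and TTTNNCGC occurred 3 times before Mcm6. None of the 3 motifs occurred before Tyms. Of 27 list genes with a promoter in the table, 23 held CCAAT (85.2%), against 33.5% of 8674 promoters of tested genes and 30% of all 27025. TTTGAA was in 33.3% of the list's promoters and 7.64% of those of tested genes, and TTTNNCGC in 14.8% and 6.17%. Of the 14 called members with a promoter, 13 held CCAAT.

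Replication-dependent histones, which are made in S phase to pack new DNA, followed. This list was chosen after its values were seen. Of 54 tested, 36 had a called positive difference, against 2.11% of all genes. In monocytes 48 rose, against 7.69%, and none changed in peritoneal macrophages, against 6.16%. The median change was 2.03 in monocytes and -0.60 in the peritoneum. Hist1h3c, a histone H3 gene, had 97.9, 162, 421 and 54.5 CPM in advanced and 31.6, 12.6, 34.1 and 5.05 CPM in baseline monocytes, with no overlap. Its difference was 4.55 ± 0.93 (adjusted p = 0.0156). Without advanced monocyte library 3 the list's count was 18, and without advanced peritoneal library 1 it was 21. Copies within the histone clusters are similar in sequence, so reads can be split among them uncertainly.

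Markers of neutrophils and of their progenitors rose in the monocyte libraries. The neutrophil list summed to 5590 to 42105 CPM in advanced and 832 to 1241 CPM in baseline monocytes, 279 to 318 CPM in advanced and 263 to 331 CPM in baseline peritoneal macrophages. Of 14 tested neutrophil genes 11 rose and 1 fell in monocytes, against 7.69% and 12.2% of all genes. None changed in the peritoneum, against 6.16%, where 4 of the list's 15 genes had no advanced reads. The difference itself was called positive in 2 and negative in 1, against 2.11% and 1.73% of all genes. Of 12 tested genes of granulocyte-monocyte progenitors 7 rose and Flt3, a growth factor receptor, fell in monocytes, against the same 7.69% and 12.2%. In the peritoneum 1 progenitor gene rose, against 3.1% of all genes, and none fell. Only 1 progenitor gene had a called difference, a positive one, against 2.11%. With counts thinned to the shallowest library 4 of the progenitor genes rose. S100a8 and S100a9 together form calprotectin, the main cytosolic protein of neutrophils. S100a8 had 2083, 4099, 11269 and 1390 CPM in advanced monocytes, against 113, 32.7, 144 and 26 CPM in baseline monocytes and at most 4.90 CPM in any peritoneal library. The lowest advanced library was well above the highest baseline one, and the monocyte change was 5.92 ± 0.66 (adjusted p = 4.01e-05).

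As a difference S100a8 was 4.78 ± 1.29 (adjusted p = 0.0463). That call rests on few peritoneal reads, 26 counts in all advanced and 73 in all baseline libraries, and it was lost in 11 of 16 fits that left out 1 library (adjusted p up to 0.103). The 5 libraries without which it stayed were advanced monocytes 1 and 4 and baseline monocytes 1, 3 and 4. S100a9 rose by 5.79 ± 0.72 in monocytes, and with 1 count in all advanced peritoneal libraries its difference did not pass (7.04 ± 3.38, adjusted p = 0.269).

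Lcn2 (lipocalin 2, which binds bacterial siderophores) had 294, 371, 1342 and 155 CPM in advanced and 25.5, 9.12, 37.2 and 18 CPM in baseline monocytes. In the peritoneum it had 2 counts in all advanced and 113 in all baseline libraries, a baseline to advanced ratio of 9.35 (95% counting interval 2.53 to 78.1). Its difference, 7.68 ± 1.65 (adjusted p = 0.0193), was the largest positive one named, and its peritoneal part rests on those 2 counts. Csf3r, the receptor for granulocyte colony-stimulating factor and also on the neutrophil list, went the other way. It had 265, 248, 205 and 230 CPM in advanced and 369, 395, 371 and 414 CPM in baseline monocytes, without overlap, and a difference of -0.80 ± 0.14 (adjusted p = 0.00845).

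The granule proteases of progenitors were Prtn3 (proteinase 3), Elane (neutrophil elastase) and the peroxidase Mpo. Prtn3, at chr10:79879667-79883174, had 43.7, 43.5, 116 and 21.8 CPM in advanced monocytes, against 2.57, 2.53, 3.05 and 2.91 CPM in baseline monocytes. Its peritoneal values were 63.9, 59.4, 86.6 and 81.4 CPM at the advanced stage and 63.9, 52.4, 58.0 and 90.3 CPM at baseline. Only the monocyte groups stood apart, and the difference was 4.18 ± 0.51 (adjusted p = 0.000934, at most 0.00545 with any library left out). Elane and Mpo rose by 4.68 ± 0.53 and 4.22 ± 0.63 in monocytes (adjusted p = 4.01e-05 and 0.00086). Mpo had 0 counts in all 8 peritoneal libraries, so no difference could be measured for it. Prtn3 reads in the peritoneum were thus not accompanied by Mpo.

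The mean log2(CPM + 1) over the neutrophil list was 6.97, 7.36, 7.93 and 6.17 in advanced monocytes, against 4.92, 3.98, 4.82 and 3.47 in baseline monocytes. It ran from 1.18 to 1.31 in advanced and from 1.13 to 1.51 in baseline peritoneal macrophages, where 4 and 2 of its 15 genes were at 0. For the progenitor list, advanced monocytes had 3.64, 4.07, 4.76 and 3.56 and baseline monocytes 2.44, 2.22, 2.69 and 1.93. The DNA replication list stood at 4.23, 4.56, 5.72 and 3.74 in advanced and 3.46, 2.74, 3.95 and 2.40 in baseline monocytes. In the peritoneum it stood at 2.13, 3.12, 2.89 and 2.98 at the advanced stage and 3.95, 2.92, 4.10 and 4.14 at baseline. Library 3 was the highest advanced monocyte library and library 4 the lowest on all 3 lists. The part of neutrophils or their progenitors in the changes of the division genes was not tested.

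**Figure D3:**
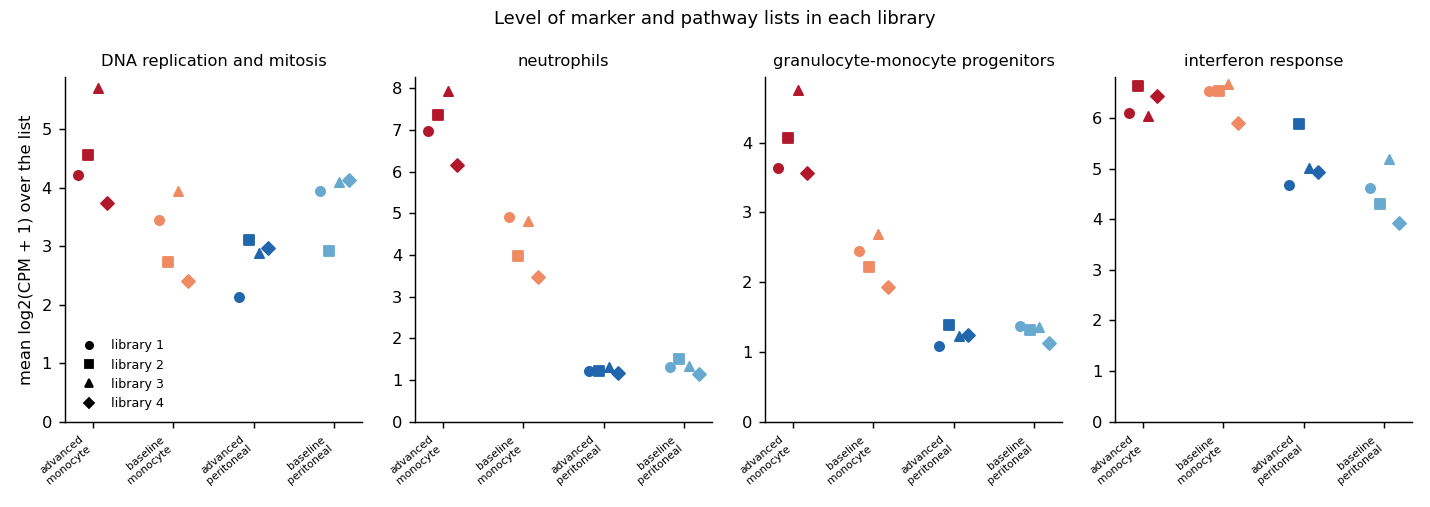
Mean log2(CPM + 1) of 4 gene lists in each library, with symbols for the library number; groups run from advanced and baseline monocytes to advanced and baseline peritoneal macrophages. The neutrophil and progenitor lists are higher in all 4 advanced than in all 4 baseline monocyte libraries and low throughout the peritoneum, and the interferon list overlaps between stages in both populations.

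Among other genes with a positive difference, Bmpr1a, a type I receptor for bone morphogenetic proteins, had the smallest p of all (chr14:34411061-34503336, chosen after its values were seen). It had 2.65, 15.9, 19.0 and 9.44 CPM in advanced and 0.581, 0.439, 0.338 and 0.194 CPM in baseline monocytes, with no overlap. Peritoneal macrophages had 74.3 to 80.6 CPM at the advanced stage and 44.4 to 56.0 CPM at baseline. The difference was 4.15 ± 0.48 (adjusted p = 0.000772, at most 0.00438 with any library left out). Lrg1, a secreted leucine-rich glycoprotein, had 105, 5.30, 23.7 and 7.99 CPM in advanced and at most 1.02 CPM in baseline monocytes, with a difference of 5.76 ± 0.90 (adjusted p = 0.00749).

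A pair of these genes rested on advanced monocyte library 1. Saa3, an acute-phase protein of macrophages and also a peritoneal macrophage marker, had 67.5 CPM there, against 0.593 to 2.18 CPM in the other 3 advanced monocyte libraries. Tln2, talin 2, which links integrins to actin, had 8.60 CPM there and at most 1.19 CPM in the other 3. Their differences of 5.66 ± 1.14 and 5.15 ± 1.12 were not called without that library (adjusted p = 0.521 and 0.371). In the peritoneum Saa3 had 409 to 1180 CPM at the advanced stage and 792 to 933 CPM at baseline. The part of peritoneal macrophages in the values of that monocyte library was not tested.

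Sh2d3c, an adaptor in integrin signalling, fell in both populations. It had 33.8, 58.3, 34.4 and 39.9 CPM in advanced and 93.1, 85.7, 84.5 and 69.4 CPM in baseline monocytes. It had 0 counts in all advanced peritoneal libraries and 84 counts in the baseline ones, so it was at least 4.63-fold lower there (floor of 3 counts over the group). The difference passed (adjusted p = 0.0411), but not without advanced monocyte 3, baseline monocyte 2, any single advanced peritoneal library or baseline peritoneal 4 (adjusted p up to 0.0887).

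Of 46 tested respiratory chain genes 16 rose in monocytes, against 7.69% of all genes, and 3 rose in peritoneal macrophages, against 3.1%. A positive difference was called in 2, against 2.11%. The monocyte count was 10 without advanced monocyte library 3. Cox5a, a subunit of cytochrome c oxidase, had 72.1, 65.8, 70.6 and 61.0 CPM in advanced and 46.0, 42.0, 47.9 and 42.0 CPM in baseline monocytes. The groups did not overlap, and the difference was 0.81 ± 0.15 (adjusted p = 0.0105). Cox6b1 of the same complex had 0.87 ± 0.23 (adjusted p = 0.0451) and was lost in 10 of the 16 fits with a library left out, all but those without advanced monocyte 3, baseline monocyte 4, advanced peritoneal 4 or baseline peritoneal 1, 2 or 3 (up to 0.092).

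Of 28 tested chromatin regulators 14 fell and 2 rose in monocytes, against 12.2% and 7.69% of all genes, and 6 fell and 1 rose in the peritoneum, against 3.06% and 3.1%. Kmt2d, a histone methyltransferase of enhancers, changed by -0.88 in monocytes and -0.80 in peritoneal macrophages. A positive difference was called in 2 and a negative one in 1, against 2.11% and 1.73% of all genes. Hdac2, a histone deacetylase, had 86.7, 77.4, 83.7 and 66.1 CPM in advanced and 34.9 to 51.3 CPM in baseline monocytes, with a difference of 0.96 ± 0.22 (adjusted p = 0.025, and 0.0615 without advanced monocyte library 3). Dnmt1, which copies DNA methylation at replication, had 1.13 ± 0.29 and fell in the peritoneum (-0.76 ± 0.21). Ezh1, a histone H3 methyltransferase, had -0.63 ± 0.17. Dnmt1 was lost in 8 of 16 fits with a library left out, those without advanced monocyte 3, baseline monocyte 1 or 2, advanced peritoneal 1, 3 or 4 or baseline peritoneal 1 or 4 (up to 0.0719). Ezh1 was lost in 15, all but the fit without advanced monocyte 2 (up to 0.208).

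Negative differences began with genes that fell in monocytes. S1pr1 and S1pr5 are receptors for sphingosine 1-phosphate, the lipid that draws leukocytes out of lymphoid organs into blood. S1pr1, at chr3:115710433-115715055, had 2.65, 3.18, 1.19 and 1.45 CPM in advanced monocytes, against 11.6, 8.57, 12.6 and 6.70 CPM in baseline monocytes. Peritoneal macrophages had 150, 184, 198 and 194 CPM at the advanced stage and 218, 191, 169 and 139 CPM at baseline. Monocyte groups stood apart and peritoneal ones overlapped, and the difference was -2.39 ± 0.42 (adjusted p = 0.00845, at most 0.0284 with a library left out). It rests on 11 counts in the advanced monocyte libraries.

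S1pr5, the receptor used by nonclassical monocytes, had 13.2, 45.6, 26.7 and 32.7 CPM in advanced and 69.1, 45.2, 80.0 and 90.0 CPM in baseline monocytes. Its groups overlapped narrowly, and the difference of -1.53 ± 0.36 (adjusted p = 0.0262) was lost without advanced monocyte 3, advanced peritoneal 1, 2 or 4 or baseline peritoneal 1, 2 or 3 (up to 0.0717). Of 15 tested nonclassical monocyte markers 4 fell in monocytes, against 12.2% of all genes. None had a called difference, against 3.84% (1 had an unadjusted p under 0.05 in edgeR, DESeq2 called 1 and limma-voom 0).

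Fzd4, a receptor for Wnt proteins, had 7.28, 9.55, 4.75 and 2.91 CPM in advanced and 13.7 to 17.1 CPM in baseline monocytes, without overlap, and a difference of -1.65 ± 0.33 (adjusted p = 0.014). Atp2b4, a calcium pump of the plasma membrane, had -1.58 ± 0.33 (adjusted p = 0.0176) and was lost without advanced peritoneal 2 or 4 (0.06 and 0.0563). Tmcc2 had -2.08 ± 0.56 (adjusted p = 0.0443) and passed only in the fits without advanced monocyte 4 or baseline monocyte 2, 3 or 4 (elsewhere up to 0.112).

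Markers of T and NK cells were low in these 16 libraries. Their summed CPM was 37.7 to 89.1 in advanced and 39.7 to 165 in baseline monocytes, 4.52 to 20.4 in advanced and 0.559 to 7.78 in baseline peritoneal macrophages. Of 16 tested 5 fell in monocytes, against 12.2% of all genes. Cd3g, a chain of the T cell receptor complex, had a difference of -4.30 ± 1.19 that lay at the threshold (adjusted p = 0.05). Of the 8 fits with a library left out that still tested Cd3g, it passed only without advanced monocyte 1. Of 5 tested erythroid genes 4 fell in monocytes, against the same 12.2%. S1pr1 and S1pr5 are also expressed by lymphocytes, and the part of T or NK cells in their change was not tested.

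**Figure D4:**
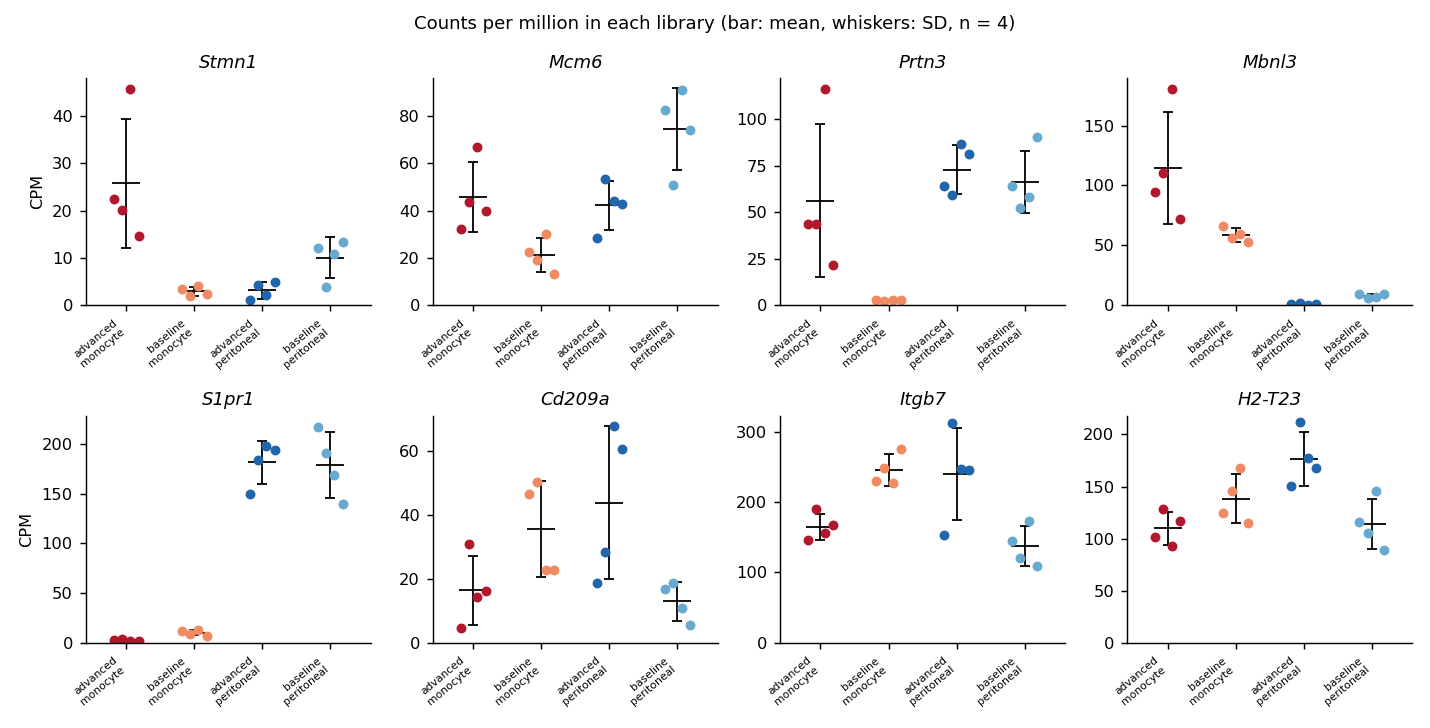
CPM of 8 genes in each library, with advanced and baseline monocytes in red tones and advanced and baseline peritoneal macrophages in blue tones; the bar is the mean and the whiskers the SD of 4 libraries. Stmn1, Mcm6, Prtn3 and Mbnl3 are higher in advanced than in baseline monocytes, S1pr1 and Itgb7 are lower there, and Cd209a, Itgb7 and H2-T23 are higher on average in advanced than in baseline peritoneal macrophages.

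Other negative differences came from genes that rose in peritoneal macrophages. C130026I21Rik, a predicted gene at chr1:85241286-85282883, had 47.5, 114, 118 and 99.0 CPM in advanced peritoneal macrophages, against 8.63, 4.76, 9.21 and 4.47 CPM in baseline ones (chosen after its values were seen). Monocytes had 4.75 to 10.9 CPM at the advanced stage and 4.15 to 4.94 CPM at baseline. The peritoneal groups were far apart, and the rise there was 3.88 ± 0.27 (adjusted p = 3.04e-07). The difference was -3.12 ± 0.45 (adjusted p = 0.00339). Its reads may be shared with related genes, so its level is uncertain.

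Cd209a, a C-type lectin found on dendritic cells and small peritoneal macrophages, had 18.6, 28.2, 67.5 and 60.6 CPM in advanced and 16.7, 18.7, 10.7 and 5.38 CPM in baseline peritoneal macrophages. Monocytes had 4.63, 30.8, 14.2 and 16 CPM at the advanced stage and 46.3, 50.3, 22.6 and 22.6 CPM at baseline. Groups overlapped in both populations, by 1 library each. The difference was -3.08 ± 0.67 (adjusted p = 0.0199) and was lost without advanced peritoneal 3 or 4 (0.0534 and 0.0539). Among 13 tested markers of small peritoneal macrophages, 1 rose and 1 fell in the peritoneum, against 3.1% and 3.06% of all genes.

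Abca6, a lipid transporter of the ABC family, had 118, 62.4, 57.2 and 104 CPM in advanced and 42.8, 34.5, 51.4 and 34.3 CPM in baseline peritoneal macrophages. The groups did not overlap, and the difference was -1.76 ± 0.33 (adjusted p = 0.0104). Qpct, an enzyme that caps peptides and chemokines with pyroglutamate, rose by 1.49 ± 0.32 in the peritoneum, without overlap. Its difference of -2.11 ± 0.48 (adjusted p = 0.0224) was lost without advanced monocyte 3 or advanced peritoneal 1 or 3 (0.0553, 0.0545 and 0.0519).

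Cxcr4, the receptor for CXCL12 that holds leukocytes in the marrow, had 27.9, 12, 9.80 and 12.2 CPM in advanced and 3.13, 2.05, 8.32 and 3.35 CPM in baseline peritoneal macrophages. Its monocyte means were 242 ± 17.0 CPM at the advanced stage and 241 ± 75.2 CPM at baseline (SD, n = 4 each). The difference of -1.95 ± 0.47 (adjusted p = 0.0286) was lost without advanced monocyte 3, advanced peritoneal 1, 2 or 4 or baseline peritoneal 1, 2 or 4 (up to 0.113).

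Of 13 tested genes of MHC class I presentation 3 rose in peritoneal macrophages, against 3.1% of all genes. In monocytes 2 fell, against 12.2%. All 13 differences were negative, 2 of them called, against 1.73% of all genes. H2-T23, the nonclassical class I molecule Qa-1, had 150, 212, 178 and 168 CPM in advanced and 116, 106, 146 and 89.1 CPM in baseline peritoneal macrophages, without overlap. In monocytes it had 101, 128, 93.1 and 117 CPM at the advanced stage and 124, 146, 168 and 115 CPM at baseline. The difference was -1.05 ± 0.19 (adjusted p = 0.00845). H2-D1, a classical class I heavy chain, had -0.75 ± 0.16 (adjusted p = 0.02) and was lost without advanced peritoneal 2, 3 or 4 (up to 0.0792). Class I genes are similar in sequence, so their reads can be shared. Of 10 tested genes of MHC class II presentation 5 differences were positive, with a median of 0.01. None was called by edgeR, DESeq2 or limma-voom, against 3.84% of all genes in edgeR (0 had an unadjusted p under 0.05).

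For 36 interferon response genes the median difference was -0.72, from -0.11 in monocytes and 0.65 in peritoneal macrophages. None had a called difference in edgeR, against 3.84% of all genes. An unadjusted p under 0.05 was reached by 18, all negative, against 11.3% of all genes with such a p and a negative difference, and DESeq2 and limma-voom called 1 each. With a replicate block within each stage 7 were called, all negative, against 1.77% of all genes. These were Irf7, Rsad2, Ifi44, Ifi47, Stat2, Mx1 and Ifit3. With a replicate block shared by both stages 1 was called. Irf7, the transcription factor that amplifies the response, was nearest, with -1.74 ± 0.48 (adjusted p = 0.0521, and 0.00457 with the block within each stage). It had 55.2, 165, 55.5 and 61.0 CPM in advanced and 45.8, 31.7, 72.6 and 20.1 CPM in baseline peritoneal macrophages, where library 2 of the advanced stage stood above the others. In monocytes Irf7 had 132, 237, 152 and 184 CPM at the advanced stage and 309, 319, 330 and 168 CPM at baseline. Ifi44 rose by 3.69 ± 0.77 in the peritoneum (adjusted p = 0.00855), with 49.8 CPM in that same library and 3.28 to 9.95 CPM in the other 3. The 7 interferon genes named here were chosen after their values were seen.

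Smaller peritoneal rises with a called difference were those of Sod1, the cytosolic superoxide dismutase, and Hgf, hepatocyte growth factor. Sod1 had 94.0, 87.0, 101 and 95 CPM in advanced and 52.2, 68.3, 56.5 and 61.8 CPM in baseline peritoneal macrophages, without overlap, and its monocyte change was -0.02 ± 0.11. Its difference was -0.75 ± 0.16 (adjusted p = 0.018, and 0.0601 or 0.0618 without advanced peritoneal 3 or 4). Hgf had a difference of -0.99 ± 0.21 (adjusted p = 0.0175, and 0.052 without advanced peritoneal 2). Traf1, an adaptor of tumour necrosis factor receptors, had 17 counts in all advanced and 21 in all baseline peritoneal libraries, and its difference of -3.04 ± 0.71 (adjusted p = 0.0255) was lost without advanced monocyte 3, advanced peritoneal 2 or 4 or baseline peritoneal 4 (up to 0.122).

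Ribosomal protein genes rose in both populations. In the peritoneum 17 of 39 rose, against 3.1% of all genes, and in monocytes 11, against 7.69%. The median changes were 0.48 and 0.25. With a library left out the peritoneal count ran from 9 to 29, past 1.5 times without advanced peritoneal 1, 3 or 4 or baseline peritoneal 1, 2 or 4. The monocyte count ran from 7 to 19, past 1.5 times without advanced monocyte 2 or 4, baseline monocyte 1 or baseline peritoneal 4. A called difference was found in 2, both negative, against 1.73% of all genes. That of Rps14, a protein of the small subunit, was -0.98 ± 0.24 (adjusted p = 0.0312). It passed without advanced monocyte 1 or 4, baseline monocyte 2, 3 or 4 or advanced peritoneal 2, and was lost in the other 10 fits with a library left out (up to 0.0963). Of 24 tested genes of cholesterol synthesis and uptake under SREBP2 none rose and 2 fell in monocytes, against 7.69% and 12.2% of all genes. None changed in the peritoneum, against 6.16%. Of 15 tested LXR targets, the cholesterol efflux genes, none had a called difference, against 3.84% of all genes (4 had an unadjusted p under 0.05, and DESeq2 and limma-voom called 0). Abca1, the main efflux pump, rose by 0.93 in monocytes, with a peritoneal change of 0.55.

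In 10 genes the changes were called in opposite directions. Mbnl3, a muscleblind RNA-binding protein that guides splicing, had the widest such contrast (chrX:51113494-51205990). It had 94.6, 110, 180 and 71.9 CPM in advanced and 66.3, 56.5, 59.3 and 53.0 CPM in baseline monocytes. Peritoneal macrophages had 1.09, 1.80, 0.545 and 0.904 CPM at the advanced stage and 9.22, 5.84, 7.25 and 9.36 CPM at baseline. Neither pair of groups overlapped, and the difference was 3.80 ± 0.54 (adjusted p = 0.00339).

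Other genes that rose in monocytes and fell in peritoneal macrophages included Mcm3 (above), Dnajb11 and Cfl1. Dnajb11, an endoplasmic reticulum chaperone, changed by 0.46 ± 0.14 in monocytes and -0.56 ± 0.14 in peritoneal macrophages. Cfl1, cofilin, which severs actin filaments, had 957, 924, 926 and 888 CPM in advanced and 697 to 792 CPM in baseline monocytes, 308 to 385 CPM in advanced and 455 to 505 CPM in baseline peritoneal macrophages. Its changes were small, 0.31 ± 0.09 and -0.36 ± 0.09, yet neither pair of groups overlapped.

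The 5 in the other direction were Itgb7, Sult1a1, Cyp2ab1, Arhgef3 and Gltscr2. Itgb7, integrin beta 7, a subunit of gut-homing receptors, had 146, 190, 156 and 167 CPM in advanced and 231, 249, 228 and 277 CPM in baseline monocytes. In the peritoneum it had 154, 313, 248 and 246 CPM at the advanced stage and 146, 121, 173 and 109 CPM at baseline. Its difference was -1.48 ± 0.23 (adjusted p = 0.00749). Sult1a1, a sulfotransferase, changed by -1.62 ± 0.45 in monocytes, on 6 advanced counts, and by 0.53 ± 0.14 in peritoneal macrophages. Cyp2ab1, a cytochrome P450, changed by -0.63 ± 0.13 and 0.44 ± 0.11, and Arhgef3, an exchange factor for small GTPases, by -0.38 ± 0.09 and 0.34 ± 0.09. Gltscr2, a nucleolar protein of ribosome assembly, changed by -0.29 ± 0.09 and 0.32 ± 0.09.

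A common response also existed. Of 299 genes called in both populations, 289 moved the same way, and for 287 of these the difference was not called, 85 up and 202 down. A difference that was not called does not show equal changes, so 95% intervals of the difference are given. Across all genes the 2 changes had a Pearson r of 0.057, over genes, which are not independent replicates.

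Wfdc17, a small secreted WAP domain protein of macrophages, had 301, 282, 209 and 219 CPM in advanced and 103, 117, 72.4 and 126 CPM in baseline monocytes. Its peritoneal values were 1095, 838, 1506 and 1077 CPM at the advanced stage and 636, 607, 646 and 655 CPM at baseline. Neither pair overlapped, the rises were 1.26 ± 0.19 and 0.90 ± 0.18, and the difference was 0.36 (-0.19 to 0.91). Ifi27l2a, an interferon-induced mitochondrial protein, rose by 0.97 ± 0.25 in monocytes and 1.60 ± 0.27 in the peritoneum, with a difference of -0.63 (-1.38 to 0.13). Tmem263 rose by 0.94 ± 0.24 and 0.98 ± 0.23.

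Cysltr1, a receptor for cysteinyl leukotrienes, and Rpph1, the RNA of ribonuclease P, also rose in both. Cysltr1 had 62.2, 47.7, 42.1 and 38.5 CPM in advanced and 7.56, 8.13, 7.11 and 28.6 CPM in baseline monocytes. In the peritoneum it had 69.9, 169, 163 and 169 CPM at the advanced stage and 34.3, 34.9, 35.1 and 97.2 CPM at baseline. Library 4 stood above the rest in both baseline groups. The difference was 0.34 (-1.07 to 1.75) for Cysltr1 and 0.00 (-0.82 to 0.82) for Rpph1, whose baseline peritoneal library 4 also stood apart (396 CPM, the others 146 to 164). The monocyte call of Cysltr1 was lost without advanced monocyte 1. Its peritoneal call was lost without any single advanced monocyte library, advanced peritoneal 2, 3 or 4 or baseline peritoneal 1, 2 or 3. The peritoneal call of Rpph1 was lost without advanced peritoneal 1, 3 or 4 or baseline peritoneal 1, 2 or 3.

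The named genes that fell in both were Nfatc2, Erdr1, P2ry6, Bcl9l and Arhgap27. P2ry6, the receptor for extracellular UDP, had 49.6, 28.6, 33.2 and 48.7 CPM in advanced and 90.9, 103, 71.4 and 91.2 CPM in baseline monocytes. Peritoneal macrophages had 2.73, 0.600, 3.81 and 1.36 CPM at the advanced stage and 14.9, 10.6, 9.11 and 6.57 CPM at baseline. It changed by -1.14 ± 0.23 in monocytes and -2.18 ± 0.42 in the peritoneum, and the interval of the difference reached from -0.02 to 2.12. Bcl9l, a coactivator of beta-catenin, changed by -1.09 ± 0.21 in each, with a difference between -0.65 and 0.65. Nfatc2, a calcium-regulated transcription factor, changed by -1.60 ± 0.22 and -1.96 ± 0.56, and Arhgap27, which switches off small GTPases, by -0.96 ± 0.18 and -2.02 ± 0.55. Each rests on 5 counts in the advanced peritoneal libraries. The peritoneal call of Nfatc2 was lost without advanced monocyte 2, 3 or 4, advanced peritoneal 1, 2 or 3 or baseline peritoneal 1, 2 or 3. That of Arhgap27 was lost without advanced peritoneal 1, 3 or 4 or baseline peritoneal 1 or 2.

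**Figure D5:**
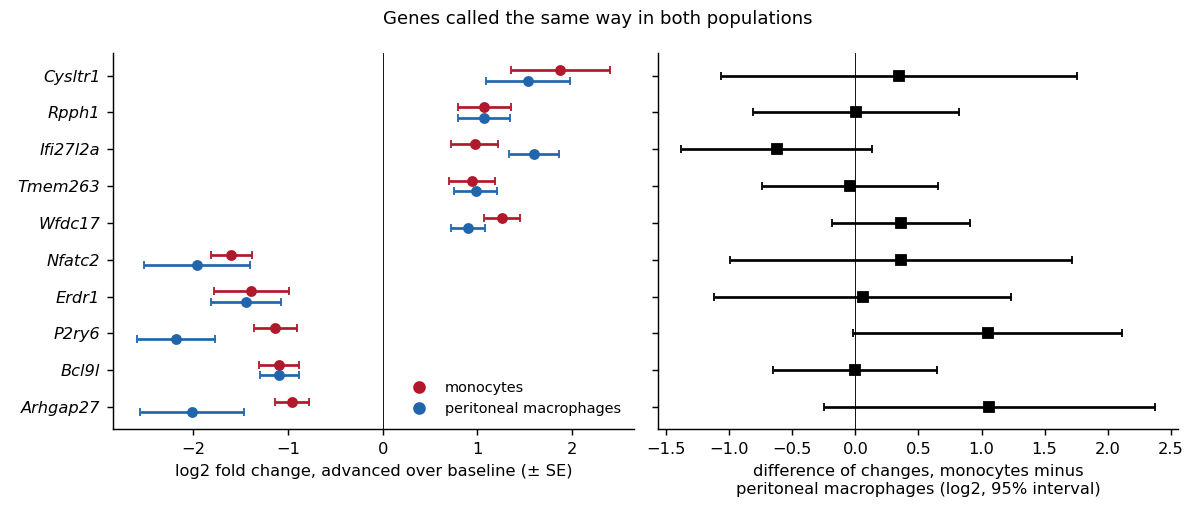
The left panel shows the log2 fold change (advanced over baseline, ± SE) of 10 genes called the same way in both populations, with monocytes in red above peritoneal macrophages in blue; the right panel shows their difference with its 95% interval. All 10 intervals include 0, and those of P2ry6 and Arhgap27 extend past a log2 difference of 2.

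The baseline libraries were far deeper than the others, so the same difference was computed from the early to the advanced stage, where depths were 0.943 to 2.21 M reads in advanced and 1.31 to 2.56 M in early libraries. It shares the advanced libraries with the first comparison, and the values stand side by side. Only 7 of 9937 genes (0.0704%) were called, 4 with a positive difference (0.0403%) and 3 with a negative one (0.0302%), and 1315 had an unadjusted p under 0.05. The biological coefficient of variation was 22.5% in this fit and 18.4% in the first. The positive ones were Ccr2, Mbnl3, Ier3 and Adam8, and the negative ones S1pr1, Slc30a4 and Stxbp3.

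Mbnl3 had a difference of 4.03 from the early stage, beside 3.80 from baseline. S1pr1 had -4.14, beside -2.39, with 24.2, 55.7, 8.82 and 21.2 CPM in early monocytes. T and NK cell markers summed to 37.7 to 89.1 CPM in advanced monocytes, against 152 to 2259 CPM in early monocytes, with the highest sum in library 2, and the list had a median difference of -2.48 from the early stage. Its part in the S1pr1 value was not tested. Ier3, an immediate-early gene of stress survival, had 3.79, beside 1.79. Ccr2, the chemokine receptor that brings monocytes out of the marrow, had 7.15, beside 0.97 that did not pass, and its early peritoneal libraries read 897, 1311, 48.0 and 24.4 CPM. Early peritoneal libraries 1 and 2 were thus far above the other 2. Markers of small peritoneal macrophages, which also express Ccr2, summed to 10625 and 24212 CPM in these libraries and to 1501 and 1535 CPM in the other 2. The MHC class II list summed to 7004 and 16749 CPM, against 1592 and 1511 CPM, and the list of GATA6-dependent large macrophages to 15531 and 9552 CPM, against 27683 and 25749 CPM. The part of small peritoneal macrophages in the early comparison was not tested. Without these libraries, the fit called 42 genes, and DESeq2 on all 16 libraries called 214. With single libraries left out the count ran from 1 to 171.

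None of the 33 division genes tested from the early stage was called, against 0.0704% of all genes, and their median difference was 1.41 (all genes: 0.03). Stmn1 had a difference of 1.92 (adjusted p = 0.249), Top2a 2.19 (0.15) and Mcm6 0.16 (0.932). Early monocytes had 21.7, 20.3, 8.82 and 19.5 CPM of Stmn1, and 1089 to 4341 CPM of S100a8. Prtn3 had 18.1 to 39.0 CPM in early monocytes, above all baseline monocyte libraries. Bmpr1a was low in early monocytes, with 0.630 to 3.98 CPM, and its difference from the early stage was 1.18 (adjusted p = 0.56).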

How the data were processed

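RNA of FACS-sorted cells was sequenced as paired-end reads from small-input libraries, per the labels' protocols. The deposited tables hold raw counts per gene for each library. STAR, featureCounts and mm10 are named in the submitters' processing notes, and versions and strandedness are not given in the sources used here. Counts were tested as deposited with edgeR 4.0.16 (R 4.3.3): 4 groups in one quasi-likelihood fit, TMM scaling, filterByExpr, and Benjamini-Hochberg adjustment over all 11355 genes tested of 24421. Fold changes are on the log2 scale with SE, and CPM divides by the reads of all genes, Rn45s included. A second fit replaced baseline by early libraries. Alternatives used DESeq2 1.42.0, limma-voom 3.58.1 and the settings in the closing section. Depth ran from 0.943 to 14.8 M reads, and counting intervals cover counting error only. The scripts were tested on simulated data. The members and lists were chosen with earlier results of these data known. Named genes were the 10 largest positive and 10 largest negative called differences, with a group mean of at least 20 CPM and no predicted symbol. To these came 5 shared changes per direction under the same conditions. Up to 3 called members with the smallest p per list and up to 5 opposite changes per direction were added at any CPM. Genes were dropped from the end of a ranking for length, and genes outside the rule are marked. After each group's mean was subtracted from log2 CPM, monocyte and peritoneal libraries with the same replicate number correlated at 0.125 to 0.227 at baseline. At the advanced stage these correlations of what remained ran from -0.051 to 0.063. The same number gave the highest correlation for every baseline monocyte library, and at the advanced stage for library 2 alone. The labels state no pairing, and what a shared number stands for is not known. The fit had no block. Blocks over both stages and within each stage were alternatives. Some genes that met the rule are not reported here.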

Additional observations from a re-analysis of the deposited data

Results flagged for a closer look

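The change over 6 months differed between the populations in 436 genes by the test of the difference itself, 240 positive and 196 negative.

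In 311 groups of 4 libraries, the gap of the highest or lowest library to its nearest neighbour was compared with the range of the group (Dixon). It passed the 95% limit in 26, where chance flags about 1 in 20. In advanced monocytes, library 1 stood high for Saa3 (67.5 CPM), Tln2 (8.60 CPM) and Dnajb11 (100.6 CPM) and low for Apoe (2.65 CPM). Library 3 of that group stood high for Cenpe (109 CPM) and Mpo (416 CPM). In baseline monocytes, library 4 stood low for Adam8 (14.5 CPM) and Irf7 (168 CPM) and high for Cysltr1 (28.6 CPM). It also stood low in mean log2(CPM + 1) of the interferon list (5.90) and of the T and NK cell list (1.42).

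In advanced peritoneal macrophages, library 1 stood high for Cxcr4 (27.9 CPM), S1pr5 (77.6 CPM) and Dnajb11 (66.1 CPM) and low for Cysltr1 (69.9 CPM) and Mki67 (15.8 CPM). Library 2 stood high for Ifi44 (49.8 CPM), Irf7 (165 CPM) and the T and NK cell list (0.854) and low for Rps14 (185 CPM). Library 3 held the only S100a9 read of that group (0.545 CPM). In baseline peritoneal macrophages, library 4 stood high for Cysltr1 (97.2 CPM) and Rpph1 (396 CPM) and low for Bcl9l (13.6 CPM). Library 2 stood low on the DNA replication list (2.92) and library 3 low for Ccr2 (7.64 CPM).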

How the results depend on the processing

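The count of 436 genes was 411 with RLE size factors, 435 without the filter on low counts, 493 with limma-voom, 398 with a replicate block and 458 (257 positive, 201 negative) with the block within each stage. DESeq2 called 666 differences, 385 of them positive, and 592 peritoneal rises. Limma-voom with quality weights called 1711 peritoneal changes (983 up, 728 down). Thinned counts gave 148 differences (95 positive, 53 negative), 1238 monocyte changes (557 up, 681 down) and 316 peritoneal changes (175 up, 141 down). Without Rn45s 109 differences were negative. A further fit left out 3 libraries chosen after seeing the data: advanced monocyte 3, baseline monocyte 4 and baseline peritoneal 4. It called 195 differences (100 positive, 95 negative) and 1167 peritoneal changes (628 up, 539 down). With 1 library left out, differences ran from 164 to 515 (positive 80 to 285, negative 54 to 230), monocyte changes from 1486 to 2342 (up 482 to 1178, down 1000 to 1264) and peritoneal changes from 294 to 882 (up 115 to 474, down 179 to 447). Against the early stage the count of 7 became 42 (34 positive, 8 negative) without early peritoneal libraries 1 and 2, 2 (1 and 1) with the replicate block, 214 (166 and 48) with DESeq2, and 1 to 171 (positive 0 to 143, negative 1 to 28) with 1 library left out; these last 3 were chosen after seeing the data. The division list's count of 18 was 8 with limma-voom, 10 thinned, 5 without the 3 libraries and 23 with the block within each stage, and the histone count of 36 was 17 with limma-voom, 22 without the 3 libraries and 40 with that block. Ribosomal proteins risen were 34 (peritoneum) and 18 (monocytes) with limma-voom, and 30 and 22 without the 3 libraries. Of 74 results on single genes, RLE ended 2 calls, no filter 1, limma-voom 11, the replicate block 3 and leaving out Rn45s 4. Of 73, thinning ended 24 and leaving out the 3 libraries 12. The block within each stage ended the calls of Cd3g, Ezh1 and Sh2d3c (adjusted p = 0.0509, 0.0520 and 0.0732) and called Irf7, Ifi44, Ccr2 and Stxbp3 (0.00457, 0.0333, 0.0464 and 0.0123). None reversed. The shallow advanced libraries limit the genes with few reads.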
